A study of Nothobranchius furzeri with 16 samples.

Results

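A set of 150 genes was examined whose mRNA in adipose tissue was higher in young killifish that had been refed than in young killifish that were still fasted, and nearly equal between fasted and refed fish at old age. They were selected on the measured values from 18606 fish genes. A gene was eligible with a mean of at least 50 normalized units over the 16 fish, outside the 50 rows of highest mean, which left 14309 genes. In 4029 of these every young refed fish was above every young fasted fish, and in 1540 of the latter the means of old fasted and old refed fish differed by less than 0.25 on the scale of log2(value + 1). The 150 members are those with the largest young difference among the 1540. Feeding differences at either age therefore chose the members and are given as a description. The level of the old fish relative to both young groups was not part of the choice.

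All fish were males of the wild-type strain GRZ-AD of Nothobranchius furzeri, an annual killifish with a short life. Each combination of age (young or old) and feeding state (fasted or refed) was represented by 4 fish housed one by one. Young fish were 7 weeks and old fish 18 weeks old per the labels. All 16 fish went without food for 72 h, and the refed groups then received food for 24 h, so no group was fed throughout. No treatment other than feeding was given. RNA came from whole adipose tissue, in which fewer cells of a type and less RNA per cell cannot be told apart.

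Adipose tissue stores energy as triglyceride and releases fatty acids by lipolysis during a fast. When food returns, insulin and nutrient signals shut lipolysis down and favour the uptake and synthesis of lipid, and protein synthesis and growth programs resume. Where a gene switches in young but not in old animals, the flat level of the old can lie at the young fasted level, at the young refed level or elsewhere, and this was measured for each member.

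Genes carry Ensembl identifiers only. The reference at hand, of 38438 RefSeq genes with symbols, lists no Ensembl identifiers, so 0 could be matched. The functions of the members are therefore not given, adipose markers could not be checked, and pathways were not analysed here. By identifier, 2 members with the highest and 2 with the lowest age difference are named, and other members are described by their rank in the young difference.

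Some features of the whole table bear on what follows. Summed over fish genes, the values came to 24.5 to 28.3 M units per young fasted fish and 21.0 to 26.6 M per young refed fish. Old fish had lower sums, of 19.0 to 21.3 M when fasted and 14.3 to 17.0 M when refed. The 50 most abundant genes held 67.9% ± 0.875 of the sum in young fasted, 63.1% ± 4.32 in young refed, 56.7% ± 2.25 in old fasted and 47.4% ± 2.86 for old refed fish (SD, n = 4 each). Spike-in rows (ERCC, synthetic RNA added as a reference) were at a log2 level of 11.45 ± 0.11 in young fasted, 10.74 ± 0.14 in young refed, 11.13 ± 0.06 in old fasted and 10.47 ± 0.08 for old refed fish (SD, n = 4 each). The number of reads behind each fish is unknown, since the values are normalized. Old fasted replicate 1 was the highest of its group in the members, and values without it are given.

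In young fish the members were 2.00-fold higher after refeeding at the median, with a range from 1.84-fold to 3.04-fold. On the log2 scale the median difference was 1.00, where the median of all fish genes was -0.10. All 150 passed limma's test at an adjusted p under 0.05, as did 26.0% of all genes in this direction, which follows from the choice. The gap between the lowest refed and the highest fasted fish was 0.58 at the median (0.02 to 1.06, log2) and at least 0.5 in 93 members. The last member had a young difference of 0.8815 and the first gene left out one of 0.8806, so the border falls in a continuous range.

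The old difference was small by choice but not centred on 0. It was higher in refed fish for 140 of the 150 members, with a median of 0.16 (log2, -0.20 to 0.25), where the median of all fish genes was 0.02. In 46 members it was 0.2 or more in size. The member nearest the limit had 0.2487 and the nearest gene outside it 0.2504. Of all genes 13.9% were called higher in old refed than in old fasted fish, and 2 of the members were. On other scales 112 members were called on log2 CPM, 24 on log2 CPM without the 50 most abundant genes in the sum and 147 with the spike-in rows as reference. The median old difference of all genes was 0.38, 0.10 and 0.67 on these scales in the same order (log2). The share of all genes called there was not counted, so the counts on other scales are no result about the members. The difference between the feeding effects of old and young fish passed limma's test in 124 members, with a smaller refeeding effect in old fish, and in 9.77% of all genes. On the deposited scale these counts follow from the choice too.

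On the deposited scale the members were a small part of the genes with a young response of this size. As many as 1619 eligible genes had the same separation of young fish and a young difference at least as large, and the members made up 9.26% of them. The cut-off on the young difference and the limit of 0.25 both come from the choice, so this share is a description. Without that cut-off, 1540 of 4029 separated genes were within the limit. Of the other 1469 genes, 1464 were at least 0.25 higher in refed than in fasted old fish, and 5 were higher in fasted old fish. The other 1469 had a median young difference of 1.25 against 1.00 in the members (log2), so they were on balance stronger responders.

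On the deposited scale the old fish lay between the young fasted and the young refed level and nearer to the fasted level, whereas on log2 CPM (median position 0.748) and with the spike-in rows as reference (0.549) they were nearer to the refed level. The position was computed for each member as the mean of the 8 old fish minus the young fasted mean, divided by the young refed minus the young fasted mean (log2), so that 0 is the young fasted and 1 the young refed level. The median position was 0.31 (quartiles 0.09 and 0.44), and 120 of 150 members were below the midpoint of 0.5. With borders at 0.25 and 0.75, old fish were at or below the young fasted level in 66 members, between the young levels in 77 and at or above the young refed level in 7. The 66 comprised 52 members with positions from -0.25 to 0.25 and 14 members with positions under -0.25, in which the mean of the old fish was below both young means.

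**Figure D1:**
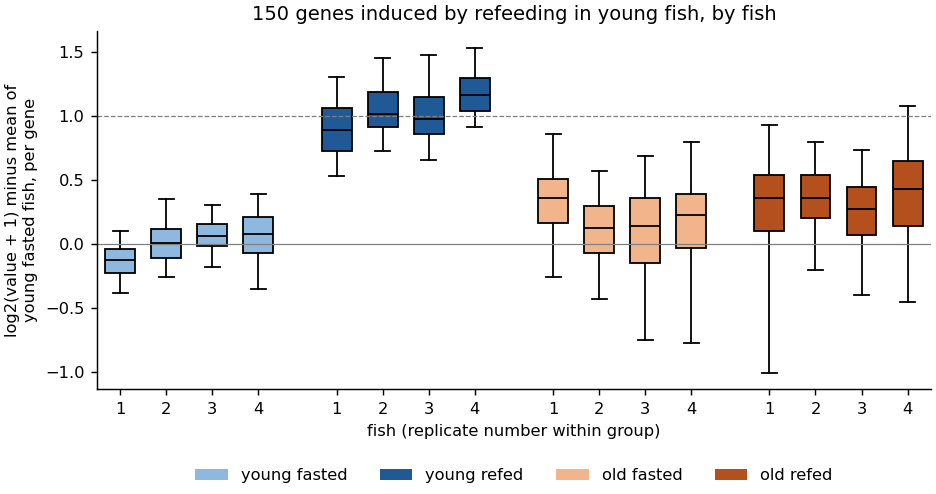
Box plots of the 150 members in each of the 16 fish. The vertical axis is log2(value + 1) of a gene minus its mean in young fasted fish, boxes span the quartiles with the median as a line, whiskers run from the 5 to the 95 percentile, and the dashed line marks the median young difference of 1.00. The medians of the 8 old fish lie between 0.13 and 0.43, below those of the 4 young refed fish at 0.89 to 1.16, on the deposited scale.

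Fish by fish, the median position over the members was -0.12, 0.01, 0.06 and 0.08 in young fasted replicates 1 to 4 and 0.87, 1.04, 0.97 and 1.13 in young refed replicates 1 to 4. In old fish it was 0.37, 0.14, 0.16 and 0.22 for fasted replicates 1 to 4, and for refed replicates 1 to 4 it was 0.36, 0.38, 0.29 and 0.42. On the deposited scale every old fish was thus above every young fasted and below every young refed fish in this median. Old fasted replicate 1 was at the level of the old refed fish. The young fish that set the span also chose the members, so this is a description. On lists they had not helped to choose, old fasted replicates 2 to 4 fell within the young fasted range, as given below. The number of members above the young midpoint was 12 to 46 in old fasted and 30 to 61 for old refed fish, against 0 to 4 in young fasted and 142 to 150 in young refed fish.

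Of the 1200 single values of old fish in the members, 49.0% fell into the gap between the young fasted and young refed ranges, 28.5% into the young fasted range, 11.8% below it, 10.2% into the young refed range and 0.5% above it. All 8 old fish were below all 4 young refed fish in 116 members, as in 11.2% of all genes, and above all 4 young fasted fish in 36 members, as in 7.46% of all genes. In 18 members both held, so that the 8 old fish lay in the gap between the young groups. The share of all genes in which both held was not counted. The young fish of these counts are those the choice was made on.

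The same young fish chose the members and set the ends of the span. The choice was therefore repeated without each fish in turn and that fish placed on the list it had not helped to choose. Young fasted fish then had median positions of -0.12 to 0.17 and young refed fish of 0.75 to 1.12. Old fasted fish were at 0.33, 0.08, 0.06 and 0.14, and old refed fish at 0.44, 0.43, 0.32 and 0.50. Every old fasted fish was thus lower, and every old refed fish higher, than on the list chosen with all fish. The old groups were further apart when the fish placed had not helped to choose for flatness. The left-out old refed fish remained above every left-out young fasted and below every left-out young refed fish, whereas 3 of the 4 old fasted fish fell within the range of the young fasted fish. Old fasted replicate 1 and old refed replicate 3 were nearly level.

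Whether old fish lay above or below the young midpoint was tested with the age main effect, the mean of the 8 old fish minus the mean of the 8 young fish. Its weights are orthogonal to the young and the old feeding difference that chose the members. It was negative in 120 of 150 members (80.0%), against 47.8% of all genes, and the median was -0.20 (log2) against 0.01 for all genes. In limma 62 members were called lower in old fish (41.3%, where 11.4% of all genes were) and 5 were called higher (3.33%, where 11.6% of all genes were). With 1 fish left out the counts were 51 to 65 lower and 2 to 6 higher, with 2 higher without young fasted replicate 1 or 4. The 62 had a median of -0.50 and comprised 58 members at or below the young fasted level and 4 between the levels. Position and age main effect are computed from the same group means, so calls and classes go together by construction.

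In the 83 members not called, the age main effect had a median of -0.10 and the median interval over all members was 0.41 wide (95%, log2); a p that missed the threshold does not place these members at the midpoint. The genes with an equally large young response that were not flat in old fish had 328 of 1469 called lower (22.3%) and 82 called higher (5.58%), with a median of -0.08. The difference between the lists was not tested.

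**Figure D2:**
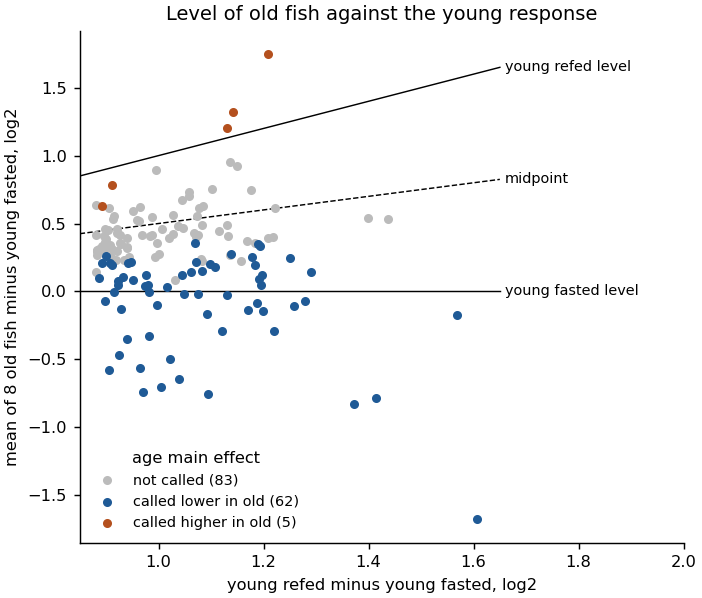
Each point is 1 of the 150 members, with the young refed minus young fasted difference on the horizontal and the mean of the 8 old fish minus the young fasted mean on the vertical axis (both log2). Lines mark the young fasted level, the midpoint and the young refed level, and colours give the call of the age main effect (62 lower, 5 higher, 83 not called). On the deposited scale most points lie below the midpoint line (120 of 150), on log2 CPM they would not (31 of 150), and the member with the largest young difference lies lowest.

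The direction of these calls depended on how the fish were scaled. On log2 CPM, which divides by the summed values, 31 of 150 members were negative, and 85 members were called higher and 15 lower in old fish, as 79.0% and 1.56% of all genes were. With the spike-in rows as reference 59 were negative, and 34 were called higher and 24 lower, where 53.5% and 2.69% of all genes were called. These scales move the age main effect of the median gene from 0.01 to 0.50 and to 0.31. Relative to the median gene, the members' median was -0.22 on the deposited scale, -0.21 on log2 CPM and -0.21 on the spike-in scale. A change of scale shifts all genes of a fish by nearly the same log2 amount. These values are therefore near each other by construction and lend no support. Without the 50 most abundant genes in the total, log2 CPM gave 118 negative members of 150 and a median of -0.17.

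Old and young fish were also compared within each feeding state. Old refed fish were called lower than young refed fish in 119 members (79.3%, where 15.1% of all genes were lower) and higher in 0 members (13.0% of all genes). Old fasted fish were called higher than young fasted fish in 32 members (21.3%, where 5.57% of all genes were higher) and lower in 4 (2.67%, where 3.98% of all genes were lower). Both comparisons use the young fish on which the members were chosen, for high refed and low fasted values, and are a description. On log2 CPM 34 members were called lower and 7 higher in refed fish, and 1 lower and 114 higher in fasted fish. With the spike-in rows as reference the counts were 66 lower and 1 higher in refed fish, and 1 lower and 100 higher in fasted fish. By the age main effect, 79.0% of all genes on log2 CPM and 53.5% on the spike-in scale were called higher in old fish. Shares of all genes within a feeding state were not counted on these scales, so these counts are no result about the members. The counts in fasted fish also depended on single fish. The 32 higher became 7 and 14 without young fasted replicates 1 and 4, and 9, 9 and 11 without old fasted replicates 1, 3 and 4 (7 to 34 over all 16 fish), and the 4 lower became 1 to 9, whereas the 119 lower in refed fish became 112 to 124. Of the 119, 99 were not called in fasted fish, 16 were called higher in old fasted fish and 4 were called lower in both. In 15 members neither comparison passed. Shares of all genes with these combinations were not counted, so these counts are no result about the members. The 16 belong to the 32 that depended on single fish.

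On the median over members, old fasted fish were at a position of 0.23 and old refed fish at 0.38. In the 1469 genes that were not flat in old fish, old fasted fish were at 0.20 and old refed fish at 0.68. The lists were thus near each other in old fasted fish and apart in old refed fish. The limit on the old difference divided the lists and uses both old groups, so this is a description. Old fasted replicate 1 was the highest of its group in these genes as well, at 0.35 against 0.12 to 0.18.

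**Figure D3:**
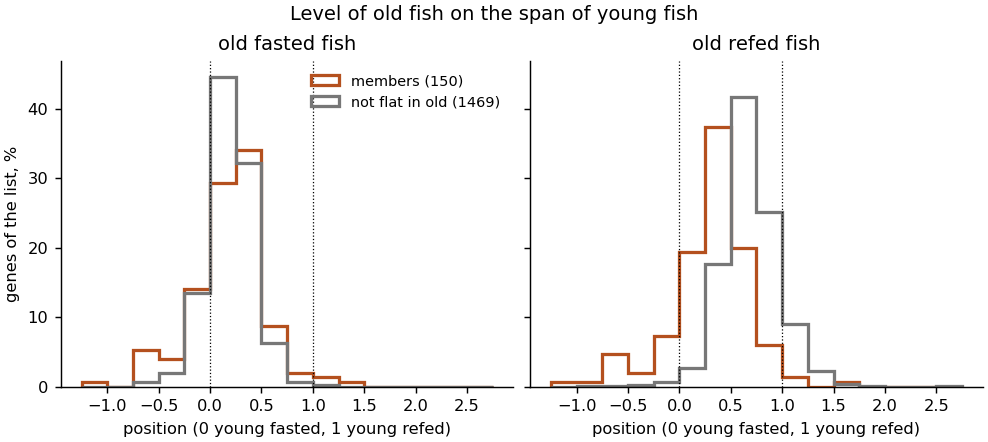
Histograms of the position of old fasted fish (left) and old refed fish (right) on the span from the young fasted (0) to the young refed (1) level, as a percentage of each list in bins of 0.25. The 150 members are in orange and the 1469 genes of equally large young response that were not flat in old fish in grey. On the deposited scale the lists overlap in old fasted fish, with medians of 0.23 and 0.20, and are apart in old refed fish, with medians of 0.38 and 0.68. The limit on the old difference, which uses both old groups, divided the lists.

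A list with the opposite young direction, of 150 genes that were lower in young fish once refed and likewise flat in old fish, was placed on the same axis. There too, on the deposited scale, the old fish were nearer to the young fasted level. The median position was 0.29, and 117 of 150 genes were below the midpoint. The age main effect of this list had a median of 0.22 on the same scale, opposite in sign to that of the members. Other scales were not tried for this list.

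The member with the largest young difference, ENSNFUG00015002182, was also the one with the lowest age main effect. Its normalized units in replicates 1 to 4 were 341, 490, 429 and 586 in young fasted and 1322, 1805, 819 and 1856 in young refed fish. In old fish they were 120, 189, 104 and 143 when fasted and 108, 178, 140 and 167 when refed. All 8 old fish were below all 8 young fish, and the old values did not separate by feeding. The age main effect was -2.48 (log2, standard error 0.18, adjusted p = 1.99e-06 from limma), a 5.59-fold lower level. The exact permutation test of 8 old against 8 young fish gave p = 0.000155, the smallest it can give. The named members were picked as the extremes of the age main effect. Their permutation p-values take no account of that or of feeding state, and are a description. As a description, the old fasted mean minus the young fasted mean was -1.73 (log2).

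The gene ENSNFUG00015003957, of rank 6 in the young difference, had the same arrangement with more overlap. Its units were 1524, 1496, 1768 and 2359 in young fasted, 5027, 5691, 3345 and 4475 in young refed, 1423, 1106, 733 and 826 in old fasted and 606, 1568, 1085 and 936 for old refed fish. Old refed replicate 2 was the only old fish above the lowest young fish. The age main effect was -1.51 (log2, standard error 0.19, adjusted p = 6.23e-05 from limma, exact permutation p = 0.000466), and the position was -0.60.

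The opposite extreme was ENSNFUG00015018096, of rank 15, in which the mean of the 8 old fish was above the young refed mean. Its units were 104, 193, 165 and 80.3 in young fasted, 230, 208, 553 and 291 in young refed, 368, 378, 396 and 511 in old fasted and 648, 388, 274 and 605 for old refed fish. All old fish were above all young fasted fish, but old and young refed fish overlapped, with a difference of their means of 0.61 (log2) that limma did not call (adjusted p = 0.191). The age main effect was 1.14 (log2, standard error 0.24, adjusted p = 0.00268 from limma, exact permutation p = 0.00466), and the position was 1.44.

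In ENSNFUG00015008000, of rank 31, the units were 3447, 4713, 4925 and 3137 in young fasted and 6870, 8004, 13425 and 8086 in young refed fish. Old fasted fish had 8542, 9518, 8498 and 11942 units and old refed fish 15356, 7898, 6281 and 14997. All old fish were above all young fasted fish, old refed replicate 3 was just below the young refed range, and old refed replicates 1 and 4 were the highest of all 16 fish. The age main effect was 0.75 (log2, standard error 0.20, adjusted p = 0.0121 from limma, exact permutation p = 0.0264). Across the 16 fish, the deviations of this gene and of ENSNFUG00015018096 from their group means had a Pearson r of 0.92, a description over fish that share libraries and scaling.

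**Figure D4:**
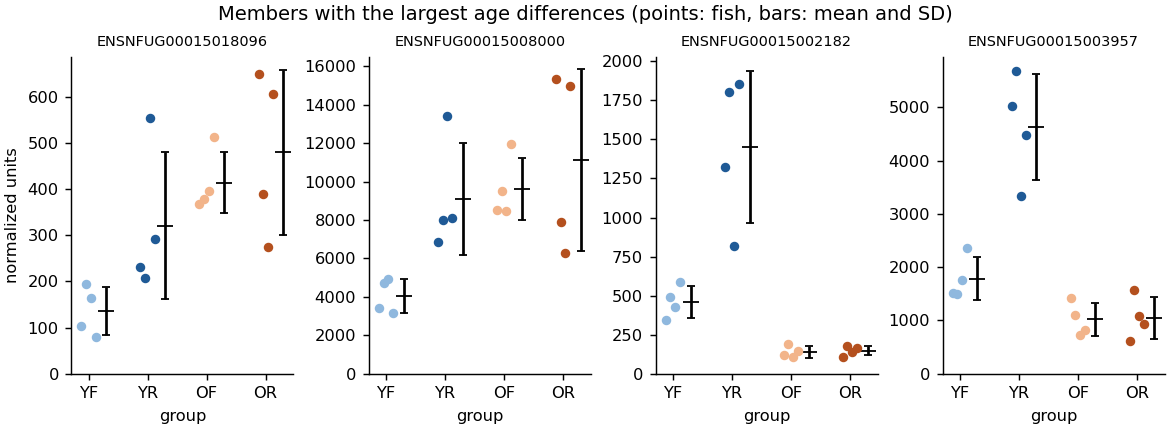
Normalized units of the 4 named members in each fish (points) with the mean and SD of each group of 4 (bars), on linear axes from 0. Y and O stand for young and old, F and R for fasted and refed. All old fish are above the young fasted fish in the 2 genes on the left, and in the 2 on the right all but old refed replicate 2 of the last gene are below all young fish.

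Other members of large young difference showed the arrangements in between. The member of rank 2 had 112 to 163 units in young fasted, 340 to 484 in young refed, 86.5 to 128 in old fasted and 111 to 162 for old refed fish, so that old fish of both feeding states lay in the young fasted range or below it. Its position was -0.11 and its age main effect -0.96 (log2, adjusted p = 4.2e-05 from limma). The member of rank 5 lay in the gap, with 478 to 621 units in young fasted, 1154 to 1724 in young refed, 672 to 827 in old fasted and 760 to 1029 for old refed fish. All 8 old fish were above every young fasted and below every young refed fish, at a position of 0.39, and the age main effect was not called (-0.16, adjusted p = 0.235 from limma). Among the 10 members of largest young difference, 8 were at or below the young fasted level in old fish on the deposited scale. The same number were called lower by the age main effect, as 11.4% of all genes were. The young difference that ranks these members also enters the position, which uses the same group means as the age main effect.

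Old fish fell entirely below all 8 young fish in 5 members, as in 1.12% of all genes, and entirely above them in 0 members, as in 1.06% of all genes. An age main effect under -1 was found in 10 members, of ranks 1 to 126 in the young difference, and one over 1 in 1 member. In 6 of the 10, all old fasted fish were below all young fasted fish. The 10 were picked by the age main effect, which these fish enter, so this is a description. Shares of all genes with effects of this size or with this separation were not counted.

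The classes had similar median levels. The median level was 343 units in the 66 members at or below the young fasted level, 336 in the 77 between and 337 in the 7 at or above the young refed level, and 337 over all members (52.8 to 10259), against 251 over all eligible genes. The young difference had a median of 1.05 (log2) in the first class, 0.96 in the second and 1.14 in the third. Across the 150 members the position had a Spearman rho of 0.02 with the level and of -0.19 with the young difference, which also enters the position itself.

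The median SD between fish (log2) was 0.20 in young fasted, 0.21 in young refed, 0.17 in old fasted and 0.17 for old refed fish, against 0.15, 0.18, 0.15 and 0.18 over the eligible genes. The members varied together, but no more than other genes of equally large young response. Their deviations from the group means had a mean pairwise correlation of 0.23 over the 16 fish, compared with 0.26 in those 1469 genes. It was 0.01 over all eligible genes, which include both directions of young response and are no like-for-like reference. Within the class at or above the young refed level it was 0.73, over only 7 genes, and in the 10 members with an age main effect under -1 it was 0.61. Genes of a fish share its library and its scaling, so these values describe the lists and are no test.

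The summed level of the 150 members gave the same order as the single genes on the deposited scale. The sum is made of the same values, weights abundant members most and includes the young fish of the choice, so it is a description. It was 78343 ± 6885 units in young fasted, 161328 ± 14928 in young refed, 96578 ± 6448 in old fasted and 106594 ± 13186 for old refed fish (SD, n = 4 each), with no overlap between old and young refed fish and with overlap between the old groups. As a share of the sum over all fish genes it was 0.289% ± 0.0113, 0.675% ± 0.132, 0.471% ± 0.0231 and 0.672% ± 0.0841 in the same order (SD, n = 4 each), so that old refed fish were at the young refed share. As a share of all but the 50 most abundant genes it was 0.901% ± 0.0524, 1.81% ± 0.155, 1.09% ± 0.0539 and 1.27% ± 0.116 (SD, n = 4 each), with no overlap between old and young refed fish. The lower share of the 50 most abundant genes in old refed fish moved together with the change of order, and its part in it was not tested.

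The flatness itself depended on the scale. With median-of-ratios or upper-quartile scaling all 150 members stayed within 0.25. On log2 CPM without the 50 most abundant genes in the sum 75 did, with a median old difference of 0.25 where that of all genes was 0.10. The median old difference of the members was 0.53 on log2 CPM (0.16 to 0.62), with 1 member within 0.25, and 0.82 with the spike-in rows as reference (0.45 to 0.91), with 0 members within it. The median of all genes moved along, to 0.38 and 0.67. Taken relative to the median of all genes, all 150 members were within 0.25 on both of these scales and on the deposited scale. The young difference so taken was 1.10 (log2) on the deposited scale, 1.10 on log2 CPM and 1.11 with the spike-in rows as reference. Both follow from the choice, since a change of scale shifts all genes of a fish by nearly the same log2 amount. The spike-in level was lower in refed than in fasted fish at both ages, and whether equal amounts were added was not tested.

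**Figure D5:**
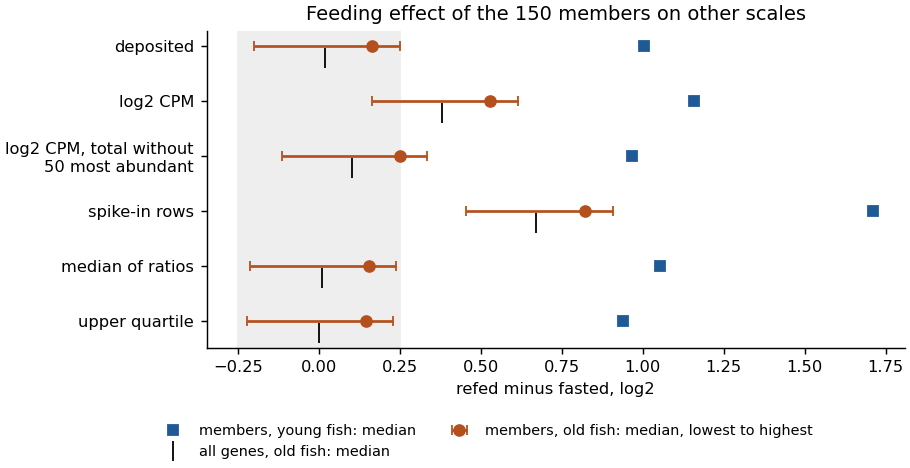
Refed minus fasted difference (log2) of the 150 members under 6 ways of scaling the fish. Orange points are medians in old fish with lines from the lowest to the highest member, blue squares are medians in young fish, and black marks are the median of all genes in old fish. The grey band is the limit of 0.25 that chose the members. Medians in old fish leave the band on log2 CPM and with the spike-in rows as reference, where the median of all genes moves to 0.38 and 0.67, while the young difference stays above the old one on each scale.

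The old difference depended on single old fish, most on old fasted replicate 1. Without it the median old difference of the members was 0.20 (-0.19 to 0.51), and 96 of the 150 members remained within 0.25. Without any 1 of the other old fish 116 to 147 did. Some loss follows from the choice, since the old fish chose the members. Without old fasted replicate 1, 11 members were called higher in old refed fish in place of 2. The share of all genes called in this contrast was not counted without that fish, so the 11 are no result about the members. The level of the old fish changed little, to a median position of 0.28. Then 70 members were at or below the young fasted level, 73 between and 7 at or above the young refed level. By the age main effect 65 members were called lower, as 11.3% of all genes were.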

How the data were processed

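Adipose RNA of 16 fish, depleted of ribosomal RNA, was sequenced by the authors. Per their methods, the authors discarded leftover ribosomal and tRNA reads and ran kallisto 0.45.0 (reference Nfu_20140520), and the authors' processing notes name DESeq2 1.24.0. The table deposited by the authors gives a normalized signal for every gene. Its scaling is not stated in the sources used here. No step between low values turned nearly all of them into whole reads, so the depth of each fish is unknown and no counting interval is given.

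The design foresaw counts or normalized values, and the test for the latter was used. For 18606 fish genes, limma 3.58.1 (trended eBayes, R 4.3.3) was run on log2(value + 1) with 16 fish in 4 groups, p-values were adjusted over all genes by Benjamini-Hochberg, and genes under 0.05 were called. This scale understates changes of low genes. Of 74 spike-in rows, kept out of the test, 42 averaging 100 units or more gave the spike-in scale. Of 268 rows with identical copies, 0 were members. Exact permutation tests were two-sided (scipy 1.17.1, Python 3.11.15). The fit was tested on simulated data.

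Members, lists and tests were chosen with earlier results of these data known. Named by identifier were the 2 members with the highest and the 2 with the lowest age main effect among those called. Lists by gene symbol could not be applied. Alternatives were log2 CPM (prior count 2, with and without the 50 most abundant genes in the sum), spike-in, median-of-ratios and upper-quartile scales, pseudocounts of 0.1 and 5, a fit of rows averaging at least 50, merged identical rows, robust eBayes, a replicate block, other class borders, limits of 0.15 on the old difference and 100 on the mean, and each fish left out. Added after the data had been seen were the 2 comparison lists, the placing of left-out fish and shares of the sum. So were counts within a feeding state on other scales and the old difference without each old fish.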

Additional observations from a re-analysis of the deposited data

How the results depend on the processing

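The number of members called higher in old fish, 5 as reported, was 85 on log2 CPM, 34 on the spike-in scale, 3 with median-of-ratios scaling, 3 with the replicate block and 2 to 6 with a fish left out, outside 1.5 times in 10 of 16 such fits. Those called lower, 62 as reported, were 15 on log2 CPM and 24 on the spike-in scale, 59 with the replicate block and 51 to 65 with a fish left out. Of all genes, 11.6% were called higher and 11.4% lower on the deposited scale. These shares were 79.0% and 1.56% on log2 CPM and 53.5% and 2.69% on the spike-in scale. The median position was 0.748 on log2 CPM and 0.549 on the spike-in scale. The classes at or below the young fasted level, between and at or above the young refed level held 16, 60 and 74 members on log2 CPM and 16, 119 and 15 on the spike-in scale. With borders of 0.33 and 0.67, 12 were in the last class, and with a fish left out 5 to 12 (12 without young refed replicate 3).

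Chosen anew, the list shared 1 member with the 150 on log2 CPM, 75 on log2 CPM without the 50 most abundant genes in the sum, 0 on the spike-in scale, 67 with a limit of 0.15 on the old difference and 96 to 136 with a fish left out (96 without old fasted replicate 1). Lists chosen anew had median positions of 0.793 on log2 CPM, 0.531 on the spike-in scale and 0.280 to 0.321 in the other scalings and pseudocounts.

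The age main effects of the 4 named members kept their direction and call in all 11 other settings and all 16 fits without a fish. These members were picked as the extremes of this effect among those called, which favours that outcome. No pairing of the fish by replicate number was seen. Same-numbered fish of different groups had correlations of -0.276 to 0.234 in their deviations, against -0.459 to 0.395 for fish with other numbers. The own number correlated best in 7 of 48 comparisons. These values cannot show that no pairing or shared handling existed. The unknown scaling of the table and the unknown depth of each fish limit statements on levels between ages.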
